A study of Mus musculus with 26 samples.

Results

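The wells described here each held messenger RNA of genes typical of oligodendrocyte precursor cells together with that of genes typical of leptomeningeal cells, and are called mixed wells. They were chosen by measured values, so the genes that chose them describe them and test nothing. A mixed well had at least 1000 molecules, 3 or more molecules of a precursor set (Olig1, Olig2, Sox10, Lhfpl3, C1ql1 and Neu4), and 3 or more of a meningeal set (Col1a1, Col1a2, Col3a1, Lum and Dcn), in both cases from 2 or more genes. Of 601 traced wells with enough molecules, 60 were mixed (9.98%), out of 1436 such wells on 25 chips in the whole series. The other traced wells were 446 precursor-only wells, 58 meningeal-only wells and 37 wells with neither set.

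The study captured GFP-positive cells of the mouse brain and spinal cord on microfluidic chips of 96 wells and counted messenger RNA molecules per well by STRT-seq, in which a molecular tag marks each captured molecule. The traced wells came from mice that carried Pdgfra-CreERT and the RCE (LoxP-GFP) reporter, in which tamoxifen switches on GFP for good in cells that have Pdgfra promoter activity at that time and in their progeny. Tamoxifen was given at E12.5 (6 chips, 404 wells) or at P3 (3 chips, 197 wells), and brain cells were sorted at P7 in both groups. The comparison line, Pdgfra-H2B-GFP, carries nuclear GFP at the Pdgfra locus without Cre or tamoxifen, and gave 2 chips of P7 brain (108 wells), 5 of P7 spinal cord (225 wells), 6 of E13.5 brain (293 wells) and 3 of E13.5 spinal cord (209 wells).

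Oligodendrocyte precursor cells divide and migrate through the brain and give rise to the myelin-forming oligodendrocytes, under transcription factors of the Olig and Sox families. Leptomeningeal cells are fibroblast-like cells of the membranes and vessel walls that secrete fibrillar collagens, small proteoglycans such as decorin, and growth factors such as IGF2. Both cell types express the PDGF alpha receptor, the gene on which both mouse lines rest, so a sort for GFP takes both.

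The question put to these wells is whether they hold RNA of more than 1 cell or a cell in a mixed state. The values below bear on it as measurements, and neither reading was tested. The study imaged the capture sites of its chips to control for doublets, and its authors also treated wells as doublets where genes of precursors and of meningeal cells occurred together, or those of the oligodendrocyte lineage and of neurons. Neither the images nor that choice of wells was used here. No doublet caller was run here and no well was removed as a doublet. None of the 2496 column names of the 26 files occurred in more than 1 file.

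The chip is the replicate in every comparison, and p-values measure the spread between chips. Chips of an experiment may share a cell suspension. The column headers give 3 experiments for the traced chips: tamoxifen at E12.5 was run in experiment 161 (chips 5, 13 and 14) and in experiment 162 (chips 15, 16 and 17), and tamoxifen at P3 in experiment 163 alone (chips 18, 19 and 20). The tamoxifen time and the experiment therefore cannot be told apart. Wells with enough molecules numbered 59 to 78 per chip after tamoxifen at E12.5 (median 66), and 70, 57 and 70 after tamoxifen at P3. Those wells together held 163880 to 297627 molecules per chip (median 198450) in the first group, and 252332, 214678 and 197602 in the second.

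Mixed wells were found on all 9 traced chips and were more frequent after tamoxifen at E12.5. In that group 55 of 404 wells were mixed, with a share of 7.94% on the lowest chip, 12.1% at the median and 20.6% on the highest. After tamoxifen at P3 5 of 197 wells were mixed, with shares of 2.86%, 1.75% and 2.86% on chips 18, 19 and 20. The lowest chip of the first group lay above the highest of the second, so the chips of the groups did not overlap. A single chip fixed its share loosely: the exact Clopper-Pearson 95% interval ran from 11.7% to 32.1% on chip 14, which had 14 mixed wells of 68, and from 0.348% to 9.94% on chip 18, which had 2 of 70. Such intervals cover counting error only.

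The mean share was 13.4% ± 5.03 (SD, n = 6 chips) after tamoxifen at E12.5 and 2.49% ± 0.637 (SD, n = 3) after tamoxifen at P3, a difference of -10.9 percentage points (P3 minus E12.5). The exact two-sided permutation test over chips gave p = 0.0238, where the smallest p possible was 0.0119. After Benjamini-Hochberg adjustment over 6 permutation tests it was p = 0.0476. Those 6 include the comparison of wells with the meningeal set, added after the data had been seen. Without that comparison in the adjustment, this adjusted p would not pass 0.05. Within experiment 161 the mean share was 14.2% ± 6.33 (SD, n = 3) and within experiment 162 it was 12.6% ± 4.63 (SD, n = 3). Set against the P3 chips, each experiment reached an exact permutation p = 0.1, below which groups of 3 chips cannot go. With at least 5 molecules from 3 genes of each set asked, the difference was -5.30 points (exact permutation p = 0.0119). The call rested on single chips: without chip 13 the exact permutation p was 0.0536, and without any 1 of the P3 chips it was 0.0714.

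All wells that held the meningeal set, mixed or not, were also more frequent after tamoxifen at E12.5. They made up 26.1% ± 9.32 of wells (SD, n = 6) in that group and 5.93% ± 2.54 (SD, n = 3) after tamoxifen at P3, a difference of -20.2 percentage points with an exact two-sided permutation p = 0.0119, the smallest possible, and an adjusted p of 0.0469. This comparison was added after the data had been seen. Of the 118 traced wells with the meningeal set, 60 also held the precursor set (50.8%). Counted among wells with the meningeal set, the mixed share was 55.0% ± 18.4 (SD, n = 6) after tamoxifen at E12.5 and 44.4% ± 9.62 (SD, n = 3) after tamoxifen at P3, and this difference was within the spread between chips (exact permutation p = 0.429). The last share rested on 12 wells in all.

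**Figure D1:**
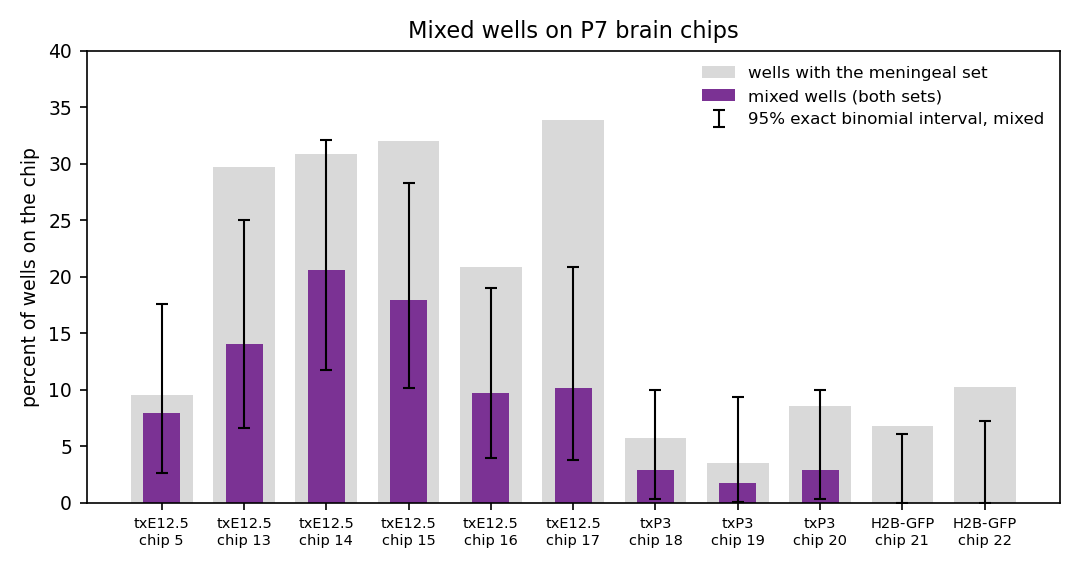
Percent of wells on each P7 brain chip that held the meningeal set (grey bars) and that were mixed (purple bars, with the exact 95% binomial interval), for 6 chips with tamoxifen at E12.5, 3 with tamoxifen at P3 and 2 of the H2B-GFP line. Every chip with tamoxifen at E12.5 had a mixed share of at least 7.94%, and the H2B-GFP chips had none.

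The plot of shares by chip also shows the untraced P7 brain, where no well was mixed: 0 of 59 wells on chip 21 and 0 of 49 on chip 22. The exact 95% intervals reach 6.06% and 7.25% on these chips, and a limit of 3 wells, used for the other counts of 0, gives 5.08% and 6.12%. Against a mean of 9.77% ± 6.76 on the 9 traced chips (SD), the exact two-sided permutation p was 0.0727 (adjusted p = 0.109, smallest possible 0.0182), so the difference did not pass 0.05. Among wells with the meningeal set, the mean mixed share was 51.5% ± 16.2 on the 9 traced chips, and 0 of 4 and 0 of 5 such wells were mixed on the H2B-GFP chips, a difference with an exact permutation p = 0.0182, the smallest possible. This p does not cover the counting error of shares of 0 from 4 and 5 wells, so it is given as a description. Together the 9 wells of the H2B-GFP line allow a share of up to 33.3%. Mouse line and experiment cannot be told apart in this comparison. The same rule found 0 mixed wells of 225 in P7 spinal cord, which allows up to 1.33%, 2 of 293 in E13.5 brain and 2 of 209 in E13.5 spinal cord.

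The molecules that chose the mixed wells were mostly above the minimum, on the meningeal side by more. Mixed wells held a median of 7 molecules of the precursor set (3 to 32) and 28 of the meningeal set (3 to 221). Precursor-only wells held a median of 11 precursor molecules, and meningeal-only wells a median of 28.5 meningeal molecules. Just inside the threshold, 7 mixed wells had exactly 3 precursor molecules and 3 had exactly 3 meningeal molecules, while 36 had at least 6 of both. Just outside it, 14 meningeal-only wells held 2 precursor molecules and 2 held 3 from a single gene, and 20 precursor-only wells held 2 meningeal molecules.

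The 6 markers of the label are all rule genes, so their shares describe the wells and do not test the label. Olig1, a transcription factor of the oligodendrocyte lineage, was seen in 85.0% of mixed wells, 91.7% of precursor-only wells and 27.6% of meningeal-only wells, at median depths of 3791, 2894.5 and 2989.5 molecules. Sox10, which drives oligodendrocyte differentiation, was seen in 65.0% of mixed, 72.0% of precursor-only and 15.5% of meningeal-only wells, and Lhfpl3, a membrane protein gene found in precursors, in 68.3%, 77.4% and 20.7%. Col1a1, which encodes a chain of type I collagen, was seen in 80% of mixed wells, 4.93% of precursor-only and 87.9% of meningeal-only wells. Col3a1, the type III collagen gene, was seen in 86.7%, 3.81% and 91.4%, and Dcn, which encodes decorin, in 91.7%, 3.81% and 98.3%. Thinned to 1000 molecules per well, Olig1 was seen in 46.1%, 67.7% and 11.8% of the classes in the same order, and Col1a1 in 50.7%, 1.80% and 60.9%. The rule fixes part of these shares. All 6 markers were seen in most mixed wells, before thinning each at a share below that of the class it marks.

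The levels of the rule genes in mixed wells lay mostly between those of the single-lineage classes. Levels are given as CPM, the molecules of a gene scaled to a total of 1000000, over the molecules of a class on a chip, as the mean over chips 13 to 17, the 5 chips with at least 3 wells of every class. Summed over the precursor set, mixed wells had 2230 CPM ± 306 (SD, n = 5), precursor-only wells 3258 ± 422 and meningeal-only wells 283 ± 55.0. Summed over the meningeal set, mixed wells had 9413 ± 5735, precursor-only wells 108 ± 53.2 and meningeal-only wells 14336 ± 4486. The level of the meningeal set varied widely among the mixed wells of different chips, from 3694 CPM to 18223, and lay above both other classes on 2 of the 5 chips. Of all 9 traced chips, the meningeal set lay above both on 4 and the precursor set on 1.

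**Figure D2:**
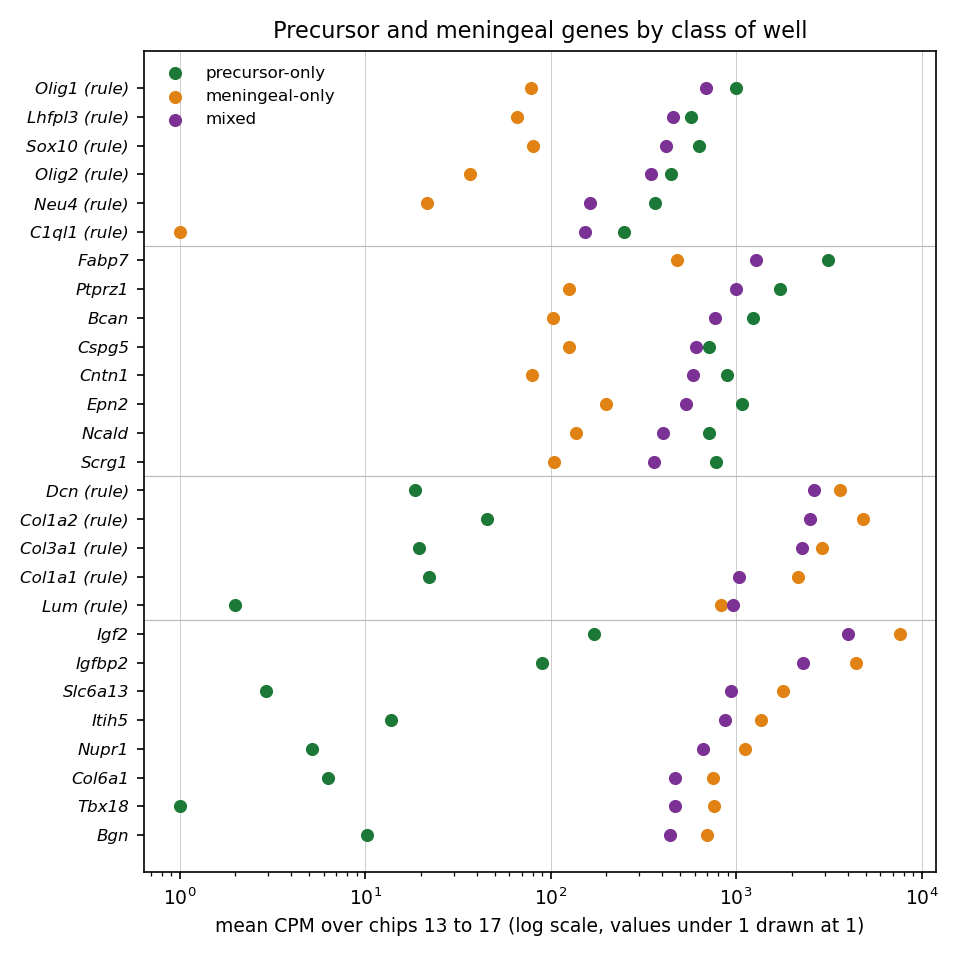
Mean CPM over chips 13 to 17 (log scale, values under 1 drawn at 1) in precursor-only, mixed and meningeal-only wells, for the 11 rule genes and for the 8 most abundant genes in mixed wells of each lineage list outside the rule. Mixed wells (purple) lie between the other classes for each gene but Lum, which has 957 CPM in mixed and 834 CPM in meningeal-only wells. The place of Lum rests on chip 17 (2980 CPM), without which it has 451 CPM in mixed and 861 in meningeal-only wells.

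Genes of both lineages that the rule did not use were present as well. These were 28 further precursor genes and 41 further meningeal genes. They come from the same contrast as the rule, so their levels are a description and support nothing. Mixed wells held a median of 27 molecules of the further precursor genes (4 to 98), against 49 in precursor-only wells and 4 in meningeal-only wells. They held a median of 62.5 molecules of the further meningeal genes (0 to 172), against 77 in meningeal-only wells and 1 in precursor-only wells. Per well, each program was thus present in fewer molecules than in the class that has it alone. This held for precursor molecules on 7 of 9 chips and for meningeal molecules on 6 of 9. Across the 60 mixed wells the molecules of the lineages were weakly related (Spearman's rho -0.18), a description over wells that share chips and differ in depth.

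**Figure D3:**
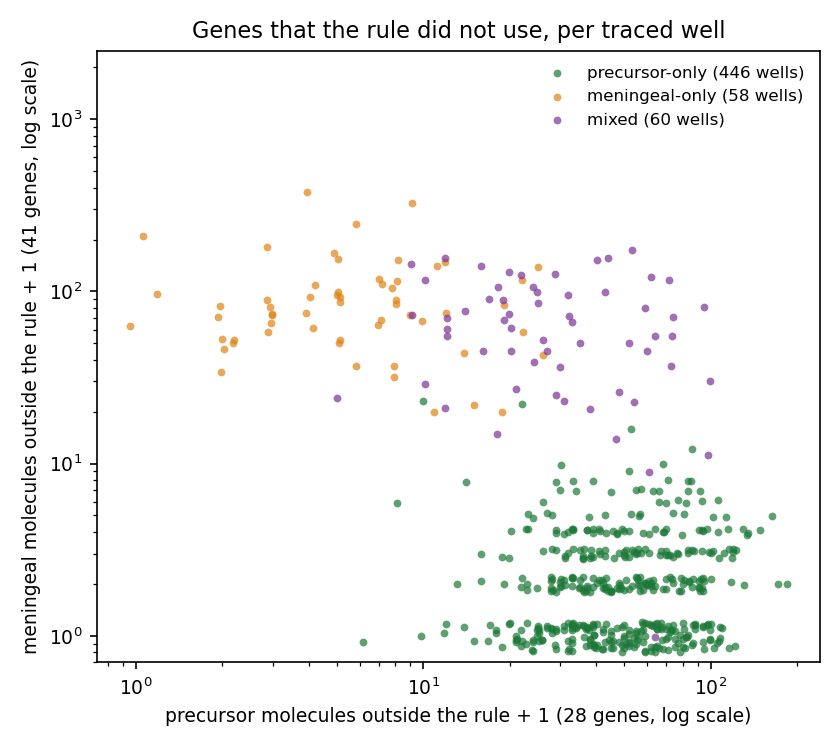
Molecules of 28 precursor genes (horizontal axis) and 41 meningeal genes (vertical axis) that the rule did not use, plus 1, on log scales, with a point for each traced well. Mixed wells (purple) overlap with precursor-only wells (green) on the horizontal and with meningeal-only wells (orange) on the vertical axis, at lower medians: 27 against 49 precursor molecules and 62.5 against 77 meningeal molecules.

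The balance of the programs differed from well to well, as the plot of genes outside the rule shows. The precursor fraction sets the CPM of the further precursor genes against that of the further meningeal genes, each divided by its mean in the class that has it alone, so that 1 is all precursor and 0 all meningeal. Mixed wells had a median fraction of 0.414, with quartiles of 0.26 and 0.655, precursor-only wells a median of 0.99 and meningeal-only wells a median of 0.0701. Between 0.2 and 0.8 lay 49 of the 60 mixed wells, 4 of 446 precursor-only wells and 11 of 58 meningeal-only wells. The median depended on how the fraction was computed. From a least-squares fit of all genes outside the rule it was 0.666 in mixed wells, 0.999 in precursor-only and 0.308 in meningeal-only wells, so that fit set the last class well above 0 and its values do not compare with those above. Outside the range, 6 mixed wells lay below 0.2 and 5 above 0.8. A single mixed well, on chip 13, held no molecule of the further meningeal genes beside 63 of the further precursor genes, and it had only 3 molecules of the meningeal set.

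The median fraction per chip was 0.206 on the lowest of the chips with tamoxifen at E12.5, 0.414 at the median and 0.686 on the highest. After tamoxifen at P3 it was 0.541, 0.149 and 0.289 on chips 18, 19 and 20, which held 2, 1 and 2 mixed wells. The means over chips were 0.423 ± 0.162 (SD, n = 6) and 0.327 ± 0.198 (SD, n = 3). The difference of -0.0965 was within the spread between chips (exact two-sided permutation p = 0.476, adjusted p = 0.476, smallest possible 0.0119). No P3 chip held the 3 mixed wells first asked for, so chips with 1 or more were taken after this had been seen. The size of the difference rested on single chips, at -0.204 without chip 18 and -0.00791 without chip 19. With wells chosen after thinning to 1000 molecules the sign turned (0.158), with a single P3 chip left.

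All 28 further genes of the precursor program were seen in mixed wells. Fabp7, a fatty acid binding protein of glial progenitors, had 1276 CPM ± 470 in mixed and 3124 ± 307 in precursor-only wells (SD, n = 5 chips). Ptprz1, a receptor phosphatase, had 1005 ± 324 and 1721 ± 207. Bcan, which encodes the matrix proteoglycan brevican, had 765 ± 301 and 1240 ± 339. Each was at 40.9% to 61.7% of its level in precursor-only wells. Cspg5, a membrane proteoglycan gene, stood at 84.5% of that level (605 CPM ± 536 in mixed wells), and at 54.7% without chip 16, which had 1545 CPM. Of the others, Cntn1, a cell adhesion gene, stood at 65.4%, Ncald, a calcium sensor gene, at 56.6%, Epn2, an endocytosis adaptor gene, at 49.8%, and Scrg1 at 46.1%. Over all 28 genes the median was 60.1%, and 26 were below their level in precursor-only wells. Dll3, a Notch ligand gene, was above it at 202%, with a low 67.6 CPM ± 72.2 and molecules in only 5 mixed wells, and at 132% (38.6 CPM) without chip 14.

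Genes of the meningeal program were present at similar shares of their own class. Igf2, a growth factor, had 4006 CPM ± 594 in mixed and 7682 ± 2673 in meningeal-only wells (SD, n = 5 chips), and Igfbp2, which binds it, had 2295 ± 724 and 4406 ± 1297. Slc6a13, a GABA transporter of the meninges, had 935 ± 326 and 1795 ± 550. These stood at 52.2%, 52.1% and 52.1% of the meningeal-only level. Tbx18, a transcription factor gene of mesenchymal cells, was at 61.5%, with 467 CPM ± 199 in mixed wells and no molecule in precursor-only wells of these chips. Itih5, a gene for a protein of the hyaluronan matrix, stood at 63.2%, Bgn, which encodes biglycan, at 63.2%, Col6a1, a type VI collagen gene, at 62.4%, and Nupr1, a stress-response gene, at 59.5%. Over all 41 genes the median was 59.5%, and 40 were below their level in meningeal-only wells. Itih2 was the exception, at 127%.

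Most genes that differed strongly between the single-lineage classes also lay in between. Of 466 genes with at least 30 molecules over the classes and a level at least 4-fold higher in precursor-only than in meningeal-only wells, 435 (93.3%) lay between the classes in mixed wells, at a median of 58.9% of the precursor-only level. Of 373 genes at least 4-fold higher in meningeal-only wells, 344 (92.2%) lay between, at a median of 53.9% of the meningeal-only level. Both counts come from the contrast that the rule made, and nothing is read from them beyond the position of the levels.

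Pdgfra itself, the gene on which the tracing rests, was seen in 86.7% of mixed wells, 89.5% of precursor-only wells and 70.7% of meningeal-only wells. Its level in mixed wells was 1230 CPM ± 355 (SD, n = 5), against 1853 ± 223 in precursor-only wells. Cspg4, which encodes the NG2 proteoglycan of precursors and pericytes, had 393 CPM in mixed and 647 in precursor-only wells. Apod, an apolipoprotein gene of fibroblasts, had 3989 CPM ± 4355 in mixed and 2520 ± 987 in meningeal-only wells. That order rests on chip 17 (11745 CPM), without which the levels are 2049 and 2238. Ptgds, a prostaglandin synthase gene of the meninges, had 6561 ± 4556 and 21491 ± 20252.

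Stages of the oligodendrocyte lineage past the precursor were represented too. Genes of committed precursors summed to 3792 CPM ± 1586 in mixed wells, 6171 ± 700 in precursor-only and 1079 ± 698 in meningeal-only wells (SD, n = 5 chips). Gpr17, a receptor gene that marks the step from precursor to myelinating cell, was the most abundant of the 10, with 1646 CPM over all mixed wells. Myelin genes summed to 5419 ± 1921, 7764 ± 2797 and 1206 ± 929. Of the 14 myelin genes, the late genes Mobp, Opalin and Ermn had no molecule in any mixed well, and were rare or absent elsewhere too, in 2, 0 and 6 of 446 precursor-only wells. Both lists lay between the single-lineage classes on 5 of 5 chips.

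Cell cycle genes were lower in mixed than in precursor-only wells on 8 of 9 chips. On chips 13 to 17 the 12 genes summed to 361 CPM ± 354 in mixed wells, 1173 ± 404 in precursor-only and 279 ± 242 in meningeal-only wells (SD, n = 5 chips). Top2a, a topoisomerase gene of dividing cells, was the most abundant, with 122 CPM over all mixed wells. On 2 of these 5 chips mixed wells lay below both other classes, and without chip 13 their mean was 214 CPM, below 336 in meningeal-only wells. The exception of the 9 was chip 18, whose 2 mixed wells had 3452 CPM against 2252 in precursor-only wells.

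Immediate early genes, which respond to stimulation and to handling of cells, summed to 1904 ± 747 in mixed, 545 ± 95.5 in precursor-only and 5919 ± 4801 in meningeal-only wells (SD, n = 5 chips 13 to 17). These means place mixed wells in between, and single chips often did not. Mixed wells lay above precursor-only wells on all 9 chips, and above both other classes on chips 5, 16, 18, 19 and 20, with 2303, 2935, 2969, 10497 and 15198 CPM against 0, 1239, 2837, 4902 and 2778 in meningeal-only wells, of which chips 5 and 19 had 1 each. Fos was the most abundant of these 12 genes, at 640 CPM over all mixed wells. What part the handling of cells had was not tested.

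**Figure D4:**
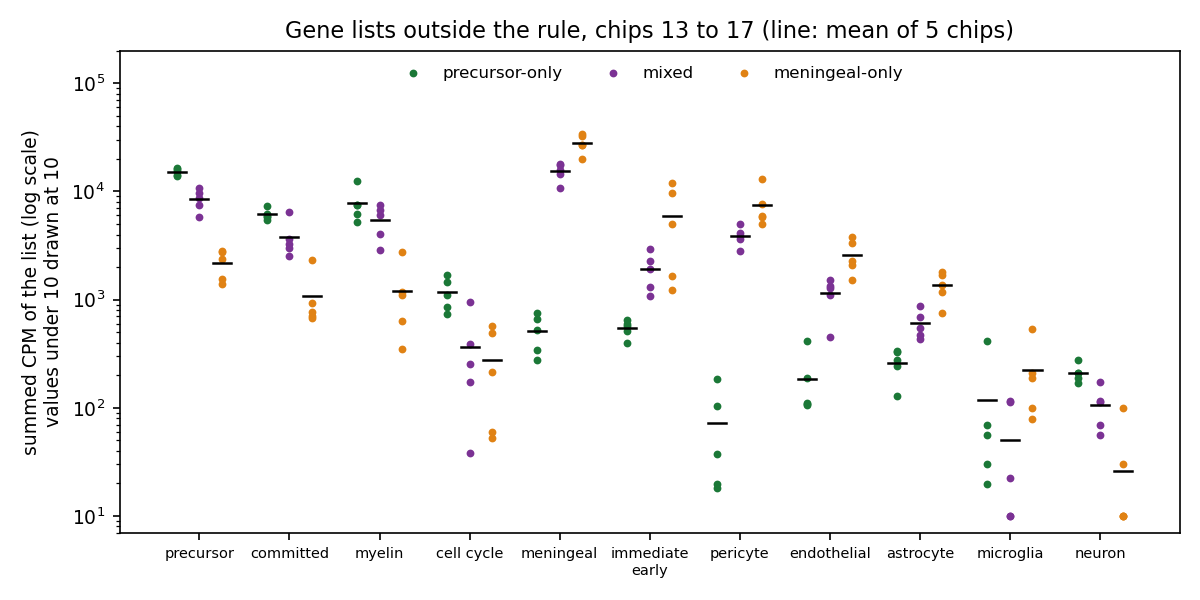
Summed CPM of gene lists outside the rule (log scale, values under 10 drawn at 10) in precursor-only, mixed and meningeal-only wells, with a point for each of chips 13 to 17 and a line at their mean. Mixed wells lie between the other classes in the mean of each list drawn but that of microglia, where they have 50.04 CPM and where their place below precursor-only wells rests on chip 13.

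Markers of other cell types that the sort could have taken were low or, as sums of lists, followed the meningeal program. The plot of gene lists shows these sums. Pericyte genes summed to 3889 CPM ± 791 in mixed and 7476 ± 3202 in meningeal-only wells (SD, n = 5 chips). That sum was mostly Vtn, which encodes vitronectin (3595 CPM over all mixed wells), while 7 of the 10 genes were seen, and Kcnj8, Abcc9 and Notch3 had no molecule in mixed wells. Pdgfrb, a receptor gene of pericytes and fibroblasts, had 130 CPM ± 59.2 in mixed and 161 ± 64.0 in meningeal-only wells, and Rgs5 had 18 molecules from 2 mixed wells. Ndufa4l2, Anpep and Atp13a5 stood above both other classes in the mean, at 149%, 110% and 129% of the meningeal-only level, from 13, 13 and 8 molecules, and each of these orders turned with a chip left out. Smooth muscle genes summed to 21.0 CPM ± 28.02, above 1.13 in precursor-only and 10.8 in meningeal-only wells, with 5 molecules in all, Des as the most abundant (11.8 CPM), and Acta2 and Cnn1 at 0. Without chip 13 the order turned, with 9.26 CPM in mixed and 13.5 in meningeal-only wells. Endothelial genes summed to 1142 ± 412 in mixed and 2609 ± 941 in meningeal-only wells, mostly Itm2a (1022 CPM over all mixed wells), with Ly6c1 and Esam at 0. Cldn5 and Pecam1, which define endothelial cells, were each seen in 1.67% of mixed wells, and Cdh5, an endothelial cadherin gene, in 25.0% of mixed and 25.9% of meningeal-only wells. Pecam1, Kdr and Slco1a4 stood above both other classes in the mean, at 16.9, 8.47 and 17.3 CPM, each from a single chip. Another 3 endothelial genes stood below both classes, and 3 lay between them. The pericyte and endothelial lists stood higher in meningeal-only than in mixed wells on each of chips 13 to 17, and on 8 and 6 of all 9 chips.

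Astrocyte genes were present in mixed wells through few genes. They summed to 604 CPM ± 179 in mixed, 261 ± 82.3 in precursor-only and 1361 ± 420 in meningeal-only wells, mostly Gja1, a gap junction gene (562 CPM over all mixed wells), with Aqp4, Gfap, Aldoc and Agt at 0. Genes of microglia and neurons were low. The 10 microglia genes summed to 50.04 CPM ± 58.9 in mixed wells against 118 ± 168 in precursor-only wells. That order rests on chip 13, with 416 CPM in precursor-only wells, and without it mixed wells stood at 129% of the precursor-only level. Neuronal genes summed to 105 ± 45.9 in mixed and 211 ± 40.1 in precursor-only wells, with Snap25 as the most abundant (47.1 CPM) and Stmn2, Gad2, Rbfox3, Slc17a6 and Slc17a7 at 0. Ependymal genes were represented by Rarres2 alone, with 157 CPM over all mixed wells. The erythroid genes Hbb-bs, Hbb-bt and Alas2 had no molecule, and 2 further erythroid genes were not analysed here.

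The rule was also applied with other gene lists in place of the meningeal set. It found pericyte genes in 62 traced wells, of which 31 were mixed and 26 meningeal-only, and endothelial genes in 42, of which 16 were mixed and 15 meningeal-only. Neuronal genes were found in 26 wells, 24 of them precursor-only and 0 of them mixed. Astrocyte genes were found in 41 wells: 12 of the mixed wells (20%), 25 of the precursor-only wells (5.61%), none of the meningeal-only wells and 4 with neither set. Mixed wells also held the most molecules at the median, and the part of depth in this was not tested. Microglia genes were found in 3 wells, all precursor-only. Of the 32 wells that joined the precursor set to pericyte genes, 31 were thus mixed wells already, and no mixed well carried the neuronal or the microglia genes at the level the rule asks.

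Few genes were higher in mixed wells than in both single-lineage classes. Of 4683 genes with at least 10 molecules in the mixed wells of chips 13 to 17, 16 had a higher CPM in mixed wells than in both other classes on every chip (0.342%). The same count was 497 of 9026 genes for precursor-only wells (5.51%) and 156 of 3352 for meningeal-only wells (4.65%). The classes are the contrast of the rule, so no test was made and nothing is read from the counts. How many genes chance alone would place above both classes was not computed. With any 1 chip left out the count for mixed wells was 44 to 65, and with at least 30 molecules asked it was 7. None of the 16 genes was in a list of cell type or state genes.

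Whether these genes share a role was not tested, and most rested on few molecules. Measured by the smaller of their ratios to the other classes, 1190002N15Rik came first (2.90, from 19 molecules in mixed wells), then Lxn, a carboxypeptidase inhibitor gene (2.79, 10 molecules), Smurf1, a ubiquitin ligase gene (2.55, 23 molecules), and Itga8, an integrin gene (2.50, 17 molecules). They were followed by Sec23a, a vesicle coat gene (1.94, 30 molecules), Atg14, an autophagy gene (1.93, 10 molecules), Rplp0, a ribosomal protein gene (1.88, 65 molecules), Ryk, a Wnt receptor gene (1.82, 31 molecules), Tmem132a (1.80, 14 molecules), and Vgll4, a transcription cofactor gene (1.76, 30 molecules). Only 4 of the 16 were at least 2-fold above both classes.

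Mixed wells held more molecules than single-lineage wells. Their median was 3791 molecules (1939 to 9442), against 2894.5 in precursor-only and 2989.5 in meningeal-only wells, and on each of the 9 chips the mixed median was the highest. They also held more genes, with a median of 1893 against 1551 and 1370.5. Per molecule of the added ERCC spike-in RNA, mixed wells had a median of 59.5 molecules, precursor-only wells 40.2 and meningeal-only wells 44.5. A well with more molecules passes a rule for minimum counts more easily, so the classes were also assigned after every well had been thinned to 1000 molecules.

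**Figure D5:**
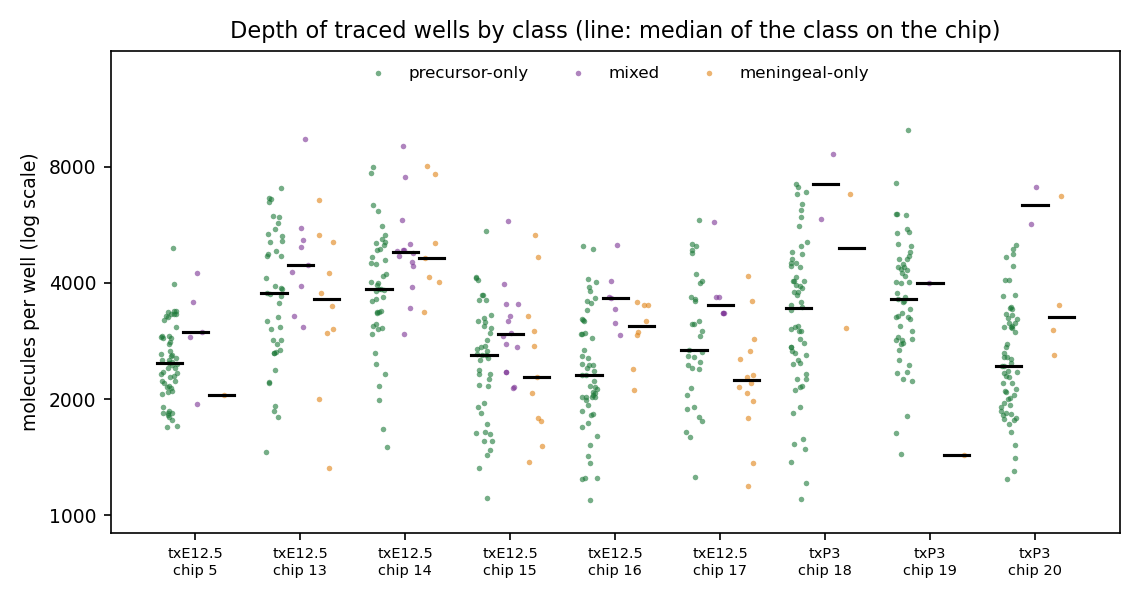
Molecules per well (log scale) in precursor-only, mixed and meningeal-only wells of each traced chip, with a point for each well and a line at the median. The mixed median is the highest of the classes on all 9 chips, before thinning.

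Classed after thinning, mixed wells still held more molecules than precursor-only wells. The thinning was repeated 100 times and wells were weighted by their share of draws in a class. On the 7 chips whose weights summed to at least 1 well of both classes, the median molecules of mixed wells before thinning were 2774 on the lowest chip, 3415 at the median and 5848 on the highest, and those of precursor-only wells were 2232, 2592 and 4010. Mixed wells were higher on 7 of 7 chips, by 0.43 ± 0.20 on the log2 scale (SD, n = 7), 1.34-fold. The exact two-sided sign-flip permutation test gave p = 0.0156, the smallest possible, and an adjusted p of 0.0469. That adjusted p, too, passes 0.05 only with the comparison of wells with the meningeal set in the adjustment. Chips with at least 1 well of a class were taken after it had been seen that thinning left too few chips with 3.

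Against meningeal-only wells no difference was detected after thinning, and this comparison could not decide whether there is one. Those wells had median molecules of 2314 on the lowest chip, 3196 at the median and 6810 on the highest, and mixed wells were higher on 4 of 7 chips, by 0.13 ± 0.28 on the log2 scale (SD, n = 7; exact sign-flip permutation p = 0.312, adjusted p = 0.375). Without chip 17 the difference was 0.067 and without chip 13 it was 0.071. The thinned comparison could not decide because its classes shared wells. Over all traced chips, thinning moved on average 31.8 of the wells first classed as mixed to the meningeal-only class. That class then summed to 86.85 wells. On chip 15 the medians of both classes were 2774 molecules. On the same 7 chips classed without thinning the difference was 0.39 ± 0.21 (SD, n = 7; exact permutation p = 0.0156). It was 0.57 on all 9 chips (exact permutation p = 0.00391) and 0.32 on the 5 chips with 3 wells of both classes (exact permutation p = 0.0625, the smallest possible). The plot of molecules by class shows the unthinned values.

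At equal depth fewer wells were mixed. Of the 60 mixed wells, 15.2 on average stayed mixed after thinning to 1000 molecules (25.3%), 31.8 became meningeal-only, 5.28 precursor-only and 7.68 neither. The precursor set, with fewer molecules per well, was thus lost more often than the meningeal set. The share of mixed wells after thinning was 3.28% ± 0.662 (SD, n = 6 chips) after tamoxifen at E12.5 and 0.851% ± 0.75 (SD, n = 3) after tamoxifen at P3, a difference of -2.43 percentage points with the same direction and an exact permutation p = 0.0119. In the H2B-GFP P7 brain it was 0 of 108 wells, which allows up to 2.78%.

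Single molecules of the other lineage were also common in wells that were not mixed. At least 1 molecule of the precursor set was seen in 62.7% of 51 meningeal-only wells after tamoxifen at E12.5 (median depth 2975 molecules) and in 6 of 7 after tamoxifen at P3 (3061 molecules), against 3 of 9 in the H2B-GFP P7 brain (2840 molecules) and 1 of 15 in the P7 spinal cord (4026 molecules). At least 1 molecule of the meningeal set was seen in 24.6% of 272 precursor-only wells after tamoxifen at E12.5 (2758.5 molecules) and in 11.5% of 174 after tamoxifen at P3 (3086 molecules). In the H2B-GFP line it was seen in 2.17% of 92 precursor-only wells of P7 brain (2273 molecules) and in 0 of 187 of P7 spinal cord (4817 molecules), which allows up to 1.60%. Thinned to 1000 molecules, these shares of precursor-only wells were 9.97%, 4.75%, 0.789% and 0. Those of meningeal-only wells, with groups in the same order, were 27.2%, 38.7%, 16.8% and 1.37%, the last 3 from 7, 9 and 15 wells. In the E13.5 brain and spinal cord, where 0.683% and 0.957% of wells were mixed, meningeal molecules were seen in 6 of 10 and 2 of 5 precursor-only wells (24.0% and 13.1% thinned), and precursor molecules in 17.0% of 106 and 6.47% of 139 meningeal-only wells. Few wells of these groups held the precursor set at all, 12 of 293 and 7 of 209. What part molecules free in the suspension had in the mixed wells was not tested.

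Sex-linked genes could have told cells of a male and a female apart within a well, and the chips did not allow it. In experiment 161, Xist, the RNA that silences an X chromosome in females, was seen in 179 of 195 wells and Y-linked genes in 0. In experiments 162 and 163 Y-linked genes were seen in 116 of 209 and 96 of 197 wells, and Xist in 0. Every traced chip thus carried cells of a single sex, and neither the 60 mixed wells nor the other traced wells held both kinds of molecule in any well. The exact permutation test on 6 chips, with a value of 0 on each, gave p = 1 and could not have given another value. In the H2B-GFP line both kinds of molecule were seen together in 22 of 293 wells of E13.5 brain, 27 of 209 of E13.5 spinal cord, 2 of 108 of P7 brain and 1 of 225 of P7 spinal cord. Chips 10, 12 and 26 of the last held no Xist.

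Within mixed wells edgeR called few genes as different by tamoxifen time, and DESeq2 called more. No P3 chip held 3 mixed wells, so the molecules of the mixed wells were summed on each of the 9 chips, a choice made after this had been seen. The 5 mixed wells of the P3 chips held 31251 molecules and the 55 of the E12.5 chips 223264. Of 414 genes tested by edgeR's quasi-likelihood F-test, 1 passed an adjusted p of 0.05 (0.242%), while 52 had an unadjusted p under 0.05, and DESeq2 called 192 of 617. The edgeR count was 0 without any 1 of chips 13, 14, 15, 16, 17 or 20 (30 to 79 genes at an unadjusted p under 0.05), 5 without chip 5 or without chip 19, and 19 without chip 18.

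The called gene was Ndufb4, which encodes a subunit of respiratory complex I. It had 348 to 832 CPM in the mixed wells of the E12.5 chips (median 590) and no molecule in the mixed wells of the 3 P3 chips, where 3 molecules would be 96 CPM. Over all mixed wells it was at least 5.74-fold lower after tamoxifen at P3, and the fitted log2 fold change of -6.998 ± 1.28 (SE, edgeR adjusted p = 0.0329) depends on how counts of 0 are treated. The genes next in order did not pass. Jun, an immediate early transcription factor gene, had a log2 fold change of 1.94 (edgeR adjusted p = 0.0724), with 173 to 579 CPM on the E12.5 chips and 1726, 750 and 1880 on the P3 chips. The whole list of immediate early genes in mixed wells had 1080 to 2935 CPM on the E12.5 chips and 2969, 10497 and 15198 on the P3 chips, and its part in this was not tested. H2afz, a histone variant gene (1.62), Zfp36l1, an RNA-binding protein gene (2.07), and 9630013A20Rik (-7.22, with no molecule on the P3 chips) each had an edgeR adjusted p of 0.077.

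The tamoxifen difference in mixed wells was also set against that in precursor-only wells of the same chips, by edgeR's test of the interaction with the chip as a block. Of 4402 genes tested, 3 passed an adjusted p of 0.05 (0.0682%), while 636 had an unadjusted p under 0.05, and DESeq2 called 110 of 737. On simulated counts this design recovered few of the changed genes, so its count says little about genes it did not call. The edgeR count was 5 without chip 5, 6 without chip 19 and 3 without chip 18, which held 2 of the 5 mixed wells after tamoxifen at P3. Those 3 were other genes. The 3 genes called on all chips missed the threshold without chip 18 (edgeR adjusted p = 0.0576 for Ndufb4, 0.0813 for Aamp and 0.428 for Ptgds). The log2 values of Ndufb4 and Aamp were then -8.28 and -8.14, close to those on all chips, and that of Ptgds was not. Ndufb4 had 560.6 CPM after tamoxifen at P3 and 624 after tamoxifen at E12.5 over all precursor-only wells, close to the level in mixed wells of the E12.5 chips. Its difference was thus seen in mixed wells and not in precursor-only wells (interaction log2 -8.60 ± 1.68, SE, edgeR adjusted p = 0.000697). Aamp, a cell migration gene, had 278 CPM over the mixed wells of the E12.5 chips and no molecule in those of the P3 chips, at least 2.89-fold lower, against 220 and 300.0 CPM in precursor-only wells (interaction log2 -8.27 ± 1.86, SE, edgeR adjusted p = 0.0127). Aamp also missed the threshold without chip 14 (edgeR adjusted p = 0.0734), without chip 20 (0.110) and with RLE size factors (0.0716). For both genes the group without a molecule was 5 wells.

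Ptgds was the gene whose difference went the other way (interaction log2 3.38 ± 0.66, SE, edgeR adjusted p = 0.000697). It rests on chip 18, without which the log2 value was 1.14, and DESeq2 did not call it (adjusted p = 0.362). In mixed wells it ranged from 0 to 11890 CPM on the E12.5 chips (median 4514) and was 20573, 0 and 5249 on the P3 chips. In precursor-only wells it ranged from 20.9 to 287 CPM on the E12.5 chips and was 0, 9.72 and 24.5 on the P3 chips. In meningeal-only wells it reached 49566 CPM on an E12.5 chip and 68948 on a P3 chip, the class with most of its molecules. What part free molecules had in the precursor-only level was not tested.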

How the data were processed

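The values are counts of molecules per gene symbol and well on Fluidigm C1 chips, which the authors made by STRT-seq with molecular identifiers on mouse build mm10 and deposited as whole numbers without normalization. Each file held 24487 genes, spike-ins and markers for 96 wells. Wells with at least 1000 molecules outside mitochondrial, ERCC, spike and marker entries were kept. Chips were grouped by the labels, and 1 chip whose label and file name disagree on age was not used. File names of the chips with tamoxifen at E12.5 give E135, and the label was followed. Members and gene lists were chosen with earlier results of these data known.

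CPM were computed here from molecules summed per class and chip. Comparisons over chips used exact two-sided permutation tests, with sign flips where chips were paired. Genes were tested by edgeR's quasi-likelihood F-test on summed counts (TMM, filterByExpr, Benjamini-Hochberg), checked on simulated counts. Thinning drew molecules without replacement, 100 times per well, with seed 1. A count of 0 was given the limit of 3 counts.

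Genes were named by a rule: all rule genes, Pdgfra, Cspg4, the 8 most abundant of each further lineage list, the most abundant gene of every other list and any gene counted, the 10 genes with the largest smaller ratio above both classes, and the called genes or the 5 with the smallest p. Other genes named (Apod, Ptgds as levels, Dll3, Itih2, Pdgfrb, Rgs5, Ndufa4l2, Anpep, Atp13a5, Cldn5, Pecam1, Cdh5, Kdr, Slco1a4) were chosen after their values were seen. Some genes that this rule or choice would name are not reported here. Alternatives were other molecule minimums, thinning, other denominators, a least-squares fraction, DESeq2, RLE factors, no filter, each experiment alone and each chip left out. Software: Python 3.11.15, numpy 2.4.6, pandas 2.3.3, scipy 1.17.1, matplotlib 3.10.9, R 4.3.3, edgeR 4.0.16 and DESeq2 1.42.0.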

Additional observations from a re-analysis of the deposited data

Results flagged for a closer look

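The tamoxifen difference in mixed wells differed from that in precursor-only wells for 3 genes by edgeR's interaction test: Ndufb4 (log2 -8.60), Ptgds (3.38) and Aamp (-8.27). None of these passed without chip 18, where the log2 values were -8.28 for Ndufb4, 1.14 for Ptgds and -8.14 for Aamp. The fitted values of Ndufb4 and Aamp rest on 5 mixed wells of the P3 chips without a molecule.

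In the mixed wells of chip 13 the summed level of 5 smooth muscle genes was 68.0 CPM, far from the other 5 chips with tamoxifen at E12.5. Without it the mean over chips 14 to 17 was 9.26 CPM in mixed and 13.5 in meningeal-only wells. All of the level on chip 13 came from Des, and the list had 5 molecules over all mixed wells. Of 26 groups of chip values examined, this was the only such chip. Chance is taken to give about 1 in 20 groups, a rate that may not hold for so few molecules.

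The files also count molecules of the transgenes, which no comparison used. Mixed wells held 5 molecules of the cre marker, in 5 of 60 wells (8.33%), against 5.61% of precursor-only and 5.17% of meningeal-only wells, while 835 wells of the H2B-GFP line, which has no Cre, held 0. The GFP marker was seen in 43.3% of mixed wells (median depth 3791 molecules), 25.6% of precursor-only (2894.5) and 44.8% of meningeal-only wells (2989.5), against 13.9% of wells of the H2B-GFP P7 brain (2273).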

How the results depend on the processing

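The lower share of mixed wells after tamoxifen at P3 kept its direction under all 18 alternatives and stayed past 0.05 under 11. It was -5.30 points with at least 5 molecules from 3 genes of each set, -14.2 with 2 molecules, -2.43 after thinning, -10.6 among wells with the meningeal set, -11.7 with experiment 161 alone, -10.1 with experiment 162 alone, and -12.0 to -9.48 with a chip left out. Against the H2B-GFP P7 brain the difference passed the threshold after thinning (2.47 points) and among wells with the meningeal set (51.5), and was 5.44 with at least 5 molecules, 12.9 with 2 and 8.41 to 10.8 with a chip left out. The value of 51.5 rests on 9 wells of the H2B-GFP line. That of 2.47 rests on 0 mixed wells of 108 in that line, which allows a share of up to 2.78%. Both are descriptions, since their p-values do not cover the counting error of shares of 0. The tamoxifen difference in wells with the meningeal set was -17.4 with experiment 161 alone and -23.0 with experiment 162 alone. With either experiment alone 0.1 is the smallest p possible. With a chip left out that difference was -23.5 to -18.7.

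The difference in precursor fraction reversed after thinning (0.158, with 1 P3 chip), and was -0.0441 with at least 5 molecules, -0.201 with 2, -0.321 with 2 and 3 mixed wells per chip (1 P3 chip), -0.163 by least squares and -0.204 to -0.00791 with a chip left out. The difference in molecules from precursor-only wells kept direction and call under all 12 alternatives (0.29 to 0.52), and that from meningeal-only wells passed the threshold without thinning (0.57, and 0.39 on the same chips) and for genes per well (0.21), and was 0.067 to 0.19 with a chip left out. Xist with Y-linked molecules stayed at 0 under all 11.

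Genes above both classes numbered 28 with 2 molecules asked of each set, 7 with 30 molecules over mixed wells and 44 to 65 with a chip left out. Genes differing by tamoxifen time numbered 192 by DESeq2, 16 without a filter, 0 with experiment 162 alone (edgeR, 23 at an unadjusted p under 0.05) and 0 to 19 with a chip left out. Ndufb4 was not among the genes tested with experiment 161 alone or with experiment 162 alone. The interaction called 110 by DESeq2, 4 with RLE size factors, 7 without a filter and 2 to 6 with a chip left out. The causes were not tested. At least 3 or 5 mixed wells per chip could not be asked in both edgeR comparisons, since no P3 chip held 3, and at least 3 wells per class and chip could not be asked after thinning. No paired analysis was possible between tamoxifen times or mouse lines because chip numbers are not shared between them, and only classes of wells were paired by chip. Depth limits the precursor set most, at a median of 7 molecules per mixed well, and the P3 group held 5 mixed wells.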

Other observations

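Among mixed wells, the 31 that passed the rule with pericyte genes had a median of 4545 molecules and a median precursor fraction of 0.347, and the 29 that did not had 3536 molecules and 0.496. The pericyte list stood at 4359 CPM in the first and 3335 CPM in the second. The split used the same genes, so this order describes the split and tests nothing. Among meningeal-only wells, 26 of 58 passed with the pericyte genes, with a median of 3514 molecules against 2729.5.

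Over the 60 mixed wells the precursor fraction from the further lineage genes and that from the least-squares fit were related with a Pearson's r of 0.441, as a description. The precursor fraction and the molecules per well had a Spearman's rho of 0.0527.

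Mitochondrial RNA made up a median of 6.83% of molecules in mixed wells, 5.86% in precursor-only wells and 7.61% in meningeal-only wells.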
